A study of Homo sapiens with 6 samples.

Results

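The RAS-ERK kinase cascade induces genes that restrain it and genes that carry its output, and the levels of 10 such genes were followed in HK-2 cells, an immortalised line of human renal tubular epithelium. The 10 genes are the MAP kinase phosphatases DUSP1, DUSP4, DUSP5 and DUSP6, the Sprouty genes SPRY2 and SPRY4, the Sprouty-related genes SPRED1 and SPRED2, and the PEA3-type transcription factors ETV4 and ETV5. They were chosen by symbol, and all 10 were among the 28565 genes of the count table and among the 13389 genes tested. All 6 RNA-seq libraries came from cells transfected with an overexpression vector for a long noncoding RNA, named LncR2 in the sample titles, and incubated for 48 h. In 3 of them exposure to cisplatin, a drug that crosslinks DNA, was given as 0 h, and in the other 3 as 24 h. Cisplatin and time in culture cannot be told apart in this comparison. Cells with the negative control plasmid were not analysed here, so whether a difference between the times depends on the vector, which all 6 libraries share, cannot be judged.

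In the ERK cascade, growth factor receptors activate RAS through adaptors and exchange factors, RAS activates RAF kinases, RAF activates MEK and MEK activates ERK. Active ERK enters the nucleus and induces its own inhibitors and some of its effectors, so the mRNAs of these genes are widely read as a sign of ERK output. DUSP proteins remove phosphate from the MAP kinases themselves, Sprouty and SPRED proteins act higher up, between receptor and RAF, and ETV4 and ETV5 are ETS-family activators that ERK both phosphorylates and induces.

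Total counts ran from 5028881 to 5844246 at 0 h and from 6022268 to 7248754 at 24 h. On the first principal component (39.6% of variance), 0 h replicate 3 was at 1.17, against -23.0 and -23.8 in replicates 1 and 2. The 24 h libraries ran from 6.22 to 22.2 on it. On the second, 0 h replicate 3 also stood apart from its group (-29.4, against 8.36 and -1.48). Calls and signs of the 10 genes that change without this library are therefore given both ways. The 7 tubular epithelial markers summed to 1067 to 1177 CPM (read counts relative to the TMM-scaled library total) over the 6 libraries, although CDH1 had at most 1 count. Of 8 proximal tubule markers, LRP2 and SLC22A6 were not among the genes of the count table. Of the other 6 (59.8 to 74.2 CPM in sum), CUBN, AQP1, SLC34A1 and ANPEP had at most 6 counts in any library, and GGT1 and GATM made up nearly all of the sum. Summed endothelial markers reached at most 0.868 CPM and leukocyte markers at most 1.45 CPM, and fibroblast markers summed to 15.95 to 18.4 CPM at 0 h and 16.7 to 20.5 CPM at 24 h, mostly COL1A1 and LUM. KDR of the endothelial list, PTPRC and CD3E of the leukocyte list and PDGFRA of the fibroblast list were likewise absent from the count table.

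Promoter windows of 300 bases, from 250 bases before to 50 after a transcription start, were matched in RefSeq (GRCh38.p14) for 6 of the 10 genes, and DUSP4, DUSP5, ETV4 and ETV5 were not matched. The windows of DUSP1, DUSP6 and SPRY4 are shown because these genes had values above, near and below 0 in the comparison of 24 h with 0 h. Capitals mark any of 6 motifs searched on both strands as fixed letter patterns. They were the cAMP response element (CRE) TGACGTCA, its half-site TGACG, which the full CRE contains on each strand, and the AP-1-type motif TGANTCA. The others were the ETS-type motif CCGGAA, the TATA box TATAAA, and the CArG box bound by SRF.
DUSP1, chr5:172771146-172771445, minus strand: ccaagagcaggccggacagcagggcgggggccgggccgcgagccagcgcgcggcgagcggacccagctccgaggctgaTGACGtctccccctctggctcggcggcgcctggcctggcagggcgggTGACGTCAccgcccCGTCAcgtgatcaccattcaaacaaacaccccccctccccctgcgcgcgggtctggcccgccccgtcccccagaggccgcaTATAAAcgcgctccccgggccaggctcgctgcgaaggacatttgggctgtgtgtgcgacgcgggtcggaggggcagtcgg
DUSP6, chr12:89352452-89352751, minus strand: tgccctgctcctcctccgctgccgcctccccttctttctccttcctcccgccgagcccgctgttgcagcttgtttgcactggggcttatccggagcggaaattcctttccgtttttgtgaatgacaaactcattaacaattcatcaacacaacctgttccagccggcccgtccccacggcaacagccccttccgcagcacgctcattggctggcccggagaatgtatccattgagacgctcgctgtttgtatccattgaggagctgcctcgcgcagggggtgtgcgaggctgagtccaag
SPRY4, chr5:142324198-142324497, minus strand: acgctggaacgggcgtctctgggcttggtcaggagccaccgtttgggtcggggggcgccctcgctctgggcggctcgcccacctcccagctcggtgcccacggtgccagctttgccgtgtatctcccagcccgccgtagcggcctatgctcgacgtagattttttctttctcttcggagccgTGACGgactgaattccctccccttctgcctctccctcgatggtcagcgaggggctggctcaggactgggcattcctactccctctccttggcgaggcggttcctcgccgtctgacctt

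Counted from the start as base 1, the DUSP1 window held a CRE from -125 to -118, half-sites outside it from -172 to -168 and from -111 to -107, and a TATA box from -30 to -25. A CRE was present in 1.85% of the 35116 RefSeq windows of this length, a half-site in 24.6% and a TATA box in 11.5%. The SPRY4 window held a half-site from -68 to -64, and the DUSP6 and SPRED1 windows held none of the 6 motifs. The ETS-type motif CCGGAA, found in 17.2% of all windows, was present in 1 of the 3 windows of SPRY2, from -142 to -137, beside a half-site from -190 to -186. SPRED2 had 2 windows, of which 1 held a half-site and the other a TATA box and 2 matches to TGANTCA, a pattern of 7.71% of all windows. These 2 matches read TGACTCA and TGAATCA. The CArG box, in 1.29% of all windows, was in none of those matched. These matches describe letters in 1 window per start, not binding. Other forms of these sites, such as the shorter GGAA of ETS sites, were not searched, so their absence is not shown.

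The 10 genes lie on 9 chromosomes in GENCODE 29 (GRCh38), with DUSP1 (from 172768090 to 172771195) and SPRY4 (from 142310427 to 142326455) both on chromosome 5. DUSP5 lies on chromosome 10 from 110497838 to 110511544, DUSP6 on chromosome 12 from 89347232 to 89353271, and DUSP4 on chromosome 8 from 29333064 to 29350668. SPRY2 is on chromosome 13 from 80335976 to 80340951, SPRED1 on chromosome 15 from 38252326 to 38357249 and SPRED2 on chromosome 2 from 65310851 to 65432637. ETV4 lies on chromosome 17 from 43527844 to 43579620 and ETV5 on chromosome 3 from 186046308 to 186110318. DUSP1 spans 3106 bases and SPRED2 121787 bases.

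Per length, DUSP5 was the most abundant of the 10 mRNAs, with a mean of 29.2 FPKM over the 6 libraries and a range of 23.4 to 38.3 FPKM that overlapped no other gene's range. ETV5 (14.8 FPKM), DUSP6 (14.0 FPKM), DUSP1 (12.8 FPKM) and SPRED2 (12.5 FPKM) followed, and each range overlapped that of the next. SPRY2 was at 6.01 FPKM, below SPRED2 and above ETV4 in all 6 libraries, with no overlap of its range with either. ETV4 (3.96 FPKM), SPRY4 (3.18 FPKM) and SPRED1 (2.90 FPKM) formed a lower group in which neighbouring ranges overlapped. DUSP4 was lowest at 0.160 FPKM, with 9 to 14 counts per library.

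**Figure D1:**
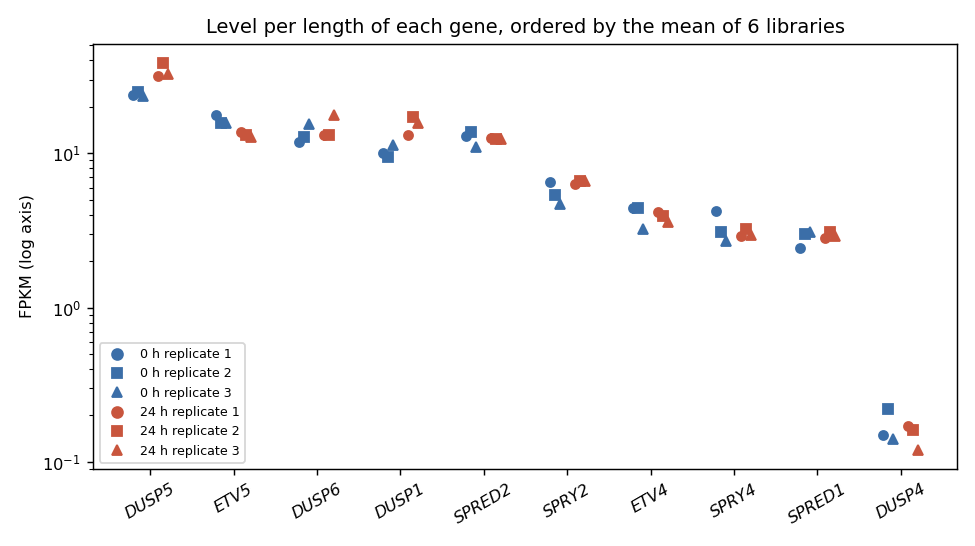
FPKM of each gene (vertical log axis) in the 3 libraries at 0 h (blue) and the 3 at 24 h (red), ordered from left to right by the mean over the 6 libraries. DUSP5, at 23.4 to 38.3 FPKM, lies above all others, and DUSP4, at 0.12 to 0.22 FPKM, lies below all others.

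The comparison of 24 h with 0 h asks which of these feedback genes differed after a day of cisplatin. ETV5 fell, 0 of the 10 genes rose and 9 were not called by edgeR's quasi-likelihood test at a Benjamini-Hochberg adjusted p under 0.05. Among all genes tested, 2.94% were called, 2.08% lower and 0.866% higher, so the count for the 10 genes rests on a single gene. DESeq2 likewise called ETV5 lower and 0 of the 10 higher, when it called 1.55% of all genes lower and 0.904% higher. The 10 fold changes ran from -0.54 to 0.33 on the log2 scale with a median of -0.22, beside a median of -0.0016 for all genes tested. DUSP1 and DUSP5 had values above 0 and SPRY4, SPRED2 and ETV5 below 0 at an unadjusted p under 0.05, which 8.22% of all genes met upward and 9.93% downward. Levels at the 2 times did not overlap for 4 of the 10, DUSP1 and DUSP5 higher and SPRY4 and ETV5 lower at 24 h, against 10.9% and 11.7% of all genes. Fewer cells with an mRNA and less of it per cell cannot be told apart in such bulk libraries.

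**Figure D2:**
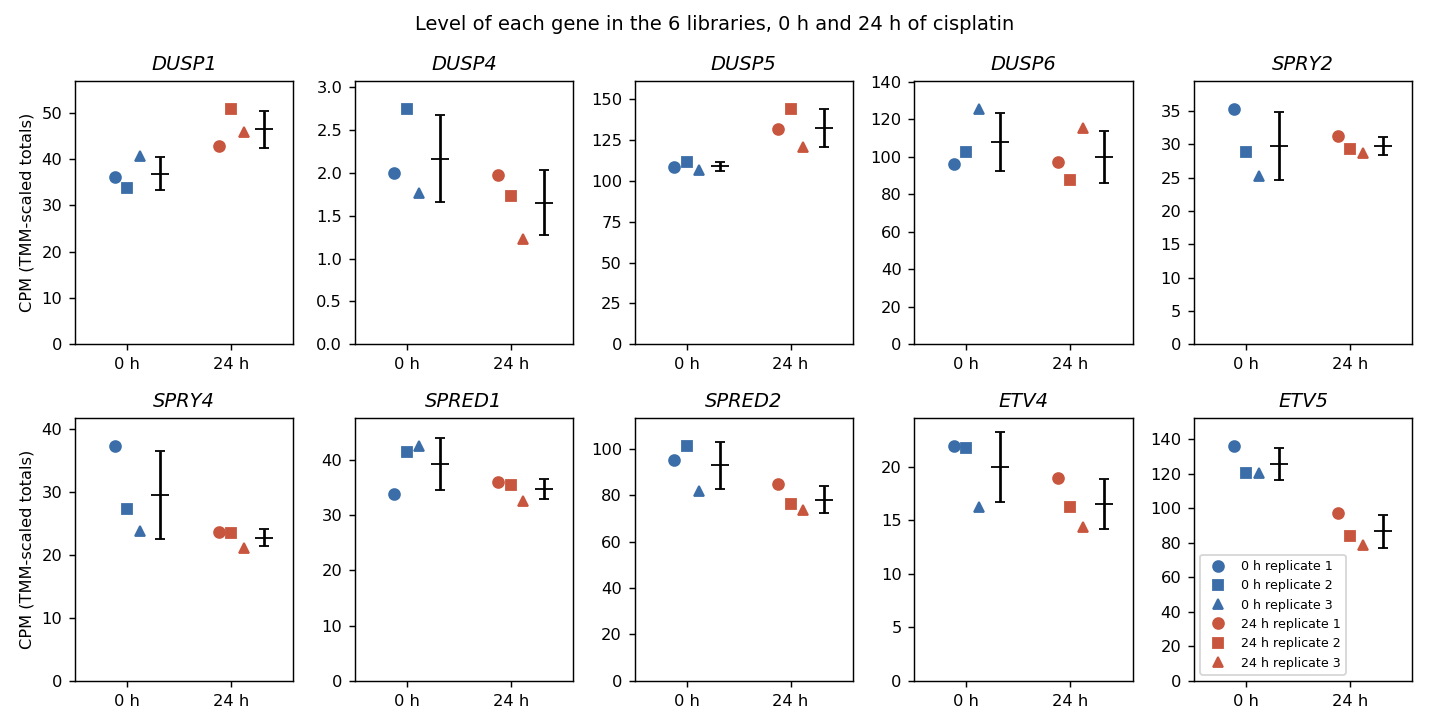
CPM of each of the 10 genes (vertical axis from 0) in each library at 0 h (blue) and 24 h (red) of cisplatin, with the mean ± SD of 3 libraries in black. The times do not overlap for DUSP1, DUSP5, SPRY4 and ETV5.

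DUSP1, a nuclear phosphatase of ERK, JNK and p38 kinases that many stresses induce, was at 36.1, 33.7 and 40.8 CPM in 0 h replicates 1, 2 and 3 and at 42.9, 50.8 and 45.8 CPM in 24 h replicates 1, 2 and 3. Every library at 24 h was above every library at 0 h, by a narrow gap between 0 h replicate 3 and 24 h replicate 1. The means were 36.9 ± 3.60 and 46.5 ± 4.0 CPM (SD, n = 3 each). The log2 fold change of 0.33 ± 0.12 (SE; 95% interval 0.08 to 0.59) missed the threshold in edgeR's test (Benjamini-Hochberg adjusted p = 0.152). Without 0h replicate 3 it was called, at 0.42 (edgeR, adjusted p = 0.0299). That fit called 574 of all genes higher, against 116 as reported. Without both libraries numbered 3 DUSP1 was not called (0.43, edgeR, adjusted p = 0.0546).

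DUSP5, a nuclear phosphatase specific for ERK, was at 108, 112 and 107 CPM at 0 h and at 132, 144 and 121 CPM at 24 h. The libraries at 0 h were close together and all lay below those at 24 h. Its means were 109 ± 2.50 and 132 ± 11.7 CPM (SD, n = 3 each). Its log2 fold change, 0.28 ± 0.10 (95% interval from 0.07 to 0.49), did not pass the edgeR test (Benjamini-Hochberg adjusted p = 0.145). It was not called in any of the 6 fits without 1 library, with values from 0.22 to 0.34. Without both libraries numbered 3 it was called (0.33, edgeR, adjusted p = 0.0491), in a fit that called 306 of all genes higher, against 116 as reported.

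DUSP6, a cytoplasmic ERK-specific phosphatase whose mRNA is a common readout of ERK activity, was at 96.3, 102 and 125 CPM at 0 h and 97.0, 87.8 and 115 CPM at 24 h. The times overlapped, and replicate 3 was the highest of its group at each of them. Its log2 fold change was -0.11 ± 0.12 with a 95% interval from -0.37 to 0.15, which covers falls of that size and small rises. Without 0h replicate 3 the value for DUSP6 was 0.014. DUSP4, a nuclear relative of DUSP1, was counted 10, 14 and 10 times in the 0 h libraries and 12, 12 and 9 times in the later ones. Its value of -0.40 ± 0.38 had an interval from -1.20 to 0.41, so a change of 2-fold lower was not distinguishable from none at this depth.

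The 5 genes whose pattern over the 6 libraries was nearest to that of DUSP6 were GNAQ, a G-protein subunit, LCORL, ZNF770, ERGIC2 and GLCE, with root mean square differences of 0.021 to 0.034 in centred log2 CPM, among 10755 genes compared. Their log2 fold changes ran from -0.11 to -0.07, near that of DUSP6 because they were picked by this pattern. None of the other 9 feedback genes was among these 5, which says little with 5 places among 10755 genes. DUSP4 was too low to be compared. Of the 8 with a mean of at least 5 CPM, SPRED1 was the nearest to DUSP6 at 0.17, and 27.1% of the genes compared were nearer still.

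Sprouty proteins block receptor signalling on the way to ERK. SPRY2 was at 35.3, 28.8 and 25.2 CPM at 0 h and 31.3, 29.4 and 28.7 CPM at 24 h, so all libraries at 24 h lay inside the range at 0 h. Its log2 fold change was 0.0026 ± 0.14, with an interval from -0.29 to 0.30, and was -0.10 without 0h replicate 3. SPRY4 was at 37.3, 27.2 and 23.8 CPM at 0 h and 23.6, 23.4 and 21.1 CPM at 24 h. In CPM the groups did not overlap, but 0 h replicate 3 and 24 h replicate 1 were close to each other and 0 h replicate 1 was far above the rest. In the deposited FPKM they overlapped, at 4.2, 3.11 and 2.69 FPKM at 0 h and 2.91, 3.21 and 2.96 FPKM at 24 h. SPRY4 had a log2 fold change of -0.37 ± 0.16 (interval from -0.71 to -0.03) that did not pass the edgeR test (Benjamini-Hochberg adjusted p = 0.228). Its value was -0.17 without 0h replicate 1 and -0.50, then called, without 0h replicate 3 (edgeR, adjusted p = 0.0210). The fit without 0h replicate 3 called 923 of all genes lower, against 278 as reported.

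SPRED1, which brings the RAS inactivator neurofibromin to the membrane, was at 33.9, 41.4 and 42.5 CPM at 0 h and 36.0, 35.5 and 32.6 CPM at 24 h. These ranges overlapped and the log2 fold change was -0.18 ± 0.12 (interval from -0.45 to 0.08). SPRED2, its paralog, was at 95.3, 101 and 81.7 CPM at 0 h and 84.8, 76.0 and 73.4 CPM at 24 h. Only 24 h replicate 1 reached into the range at 0 h, and the log2 fold change of -0.25 ± 0.11 (interval from -0.48 to -0.02) did not pass (edgeR, Benjamini-Hochberg adjusted p = 0.242). Without 0h replicate 3 SPRED2 was called at -0.33 (edgeR, adjusted p = 0.0395), in a fit that called 923 of all genes lower, against 278 as reported.

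ETV5, an ETS activator induced by ERK and by fibroblast growth factor signalling, was at 136, 120 and 121 CPM in 0 h replicates 1, 2 and 3 and at 97.2, 83.9 and 78.9 CPM in 24 h replicates 1, 2 and 3. The lowest library at 0 h was well above the highest at 24 h. ETV5 fell by 0.54 ± 0.11 on the log2 scale (95% interval from -0.77 to -0.31), to 0.689 of its level at 0 h, from 126 ± 9.07 to 86.7 ± 9.45 CPM (SD, n = 3 each). The edgeR quasi-likelihood test gave a Benjamini-Hochberg adjusted p of 0.0124 and DESeq2 gave 0.0024. Of all genes tested, 5.38% had a lower log2 fold change. The call was lost without 24h replicate 2 (-0.51, adjusted p = 0.110) or 24h replicate 3 (-0.48, adjusted p = 0.0660).

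The ETV5 locus shares 4651 bases with DGKG on the same strand, of which 164 bases, or 2.83% of the annotated exonic bases of ETV5, are exonic in both. DGKG, a diacylglycerol kinase, had 222 to 278 counts per library and a log2 fold change of -0.33 ± 0.11 that was not called (edgeR, Benjamini-Hochberg adjusted p = 0.128). The part of these shared bases in the fall of ETV5 was not tested. ETV4, the close relative of ETV5, was at 21.9, 21.8 and 16.2 CPM at 0 h and 19.0, 16.2 and 14.4 CPM at 24 h. These groups overlapped, and its value was -0.27 ± 0.17 (interval from -0.63 to 0.08). All of ETV4 lies within DHX8 on the opposite strand, with 1.89% of its exonic bases shared, and DHX8 was at -0.02 ± 0.12.

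**Figure D3:**
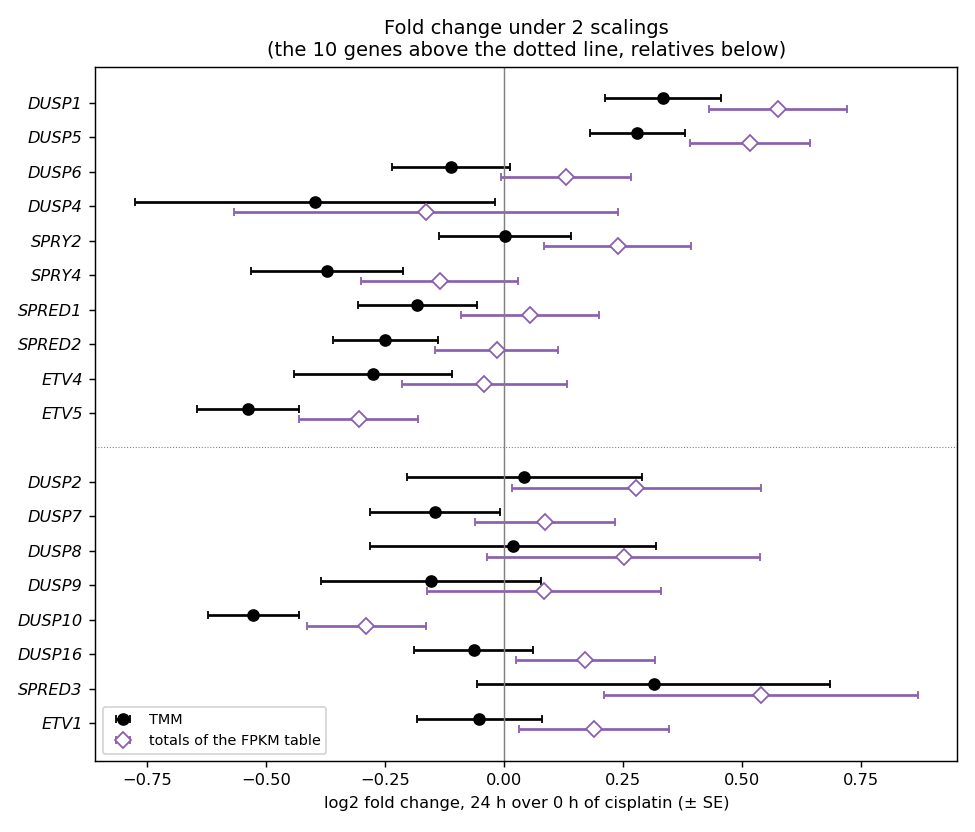
Log2 fold change (24 h over 0 h, ± SE) of the 10 genes and of 8 tested relatives, with TMM scaling (black circles) and with the library totals of the FPKM table (open violet diamonds). ETV5 and DUSP10 are furthest below 0 with either scaling, and the diamonds lie to the right of the circles for all 18 genes.

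The direction of 2 of the 10 genes, DUSP6 and SPRED1, depended on how libraries were scaled. Library totals recovered from the FPKM table shifted the median log2 fold change of all genes by 0.24. Under them DUSP1 (0.58, edgeR adjusted p = 0.0076) and DUSP5 (0.52, adjusted p = 0.0059) were called higher, when 17.6% of all genes were, so 2 of 10 is near the background. ETV5 stayed below 0 at -0.31 but was not called (adjusted p = 0.0757), when 1.46% of all genes were called lower. DUSP6 (0.13) and SPRED1 (0.05), neither called under either scaling, changed sign with these totals. SPRY4 was at -0.14, and SPRED2 (-0.02) and ETV4 (-0.04) came close to 0. The changes given with TMM scaling, above and below, are therefore relative to the median gene.

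Comparisons within a library do not depend on its scaling. The log2 ratio of DUSP5 counts to ETV5 counts, chosen like the next 2 ratios after the values were seen, was -0.33, -0.11 and -0.18 at 0 h and 0.44, 0.78 and 0.61 at 24 h. ETV5 thus had more counts than DUSP5 in every library at 0 h and fewer in every library at 24 h. For ETV4 over ETV5 the log2 ratio was -2.63, -2.47 and -2.89 at 0 h and -2.36, -2.37 and -2.45 at 24 h, again without overlap. For SPRY2 over SPRY4 it was -0.08, 0.08 and 0.08 at 0 h and 0.41, 0.33 and 0.44 at 24 h. An exact two-sided permutation test gave p = 0.1 for these 3 ratios, the smallest that 3 libraries against 3 allow. All 36 pairs of the 9 genes other than DUSP4 were compared in this way. The times did not overlap for 16 of these pairs and overlapped for 20, and the smallest adjusted p over them was 0.225 (Benjamini-Hochberg, exact permutation). Each gene enters several pairs, so the pairs are not independent. Apart from SPRY2 with SPRY4 and SPRY2 with ETV4, every pair without overlap held DUSP1, DUSP5 or ETV5. The share without overlap among pairs of all genes was not computed, so these counts are not read as a result about the feedback genes.

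A further 6 MAP kinase phosphatases of the DUSP family were followed as relatives, and 1 of them, DUSP10, fell, when 2.08% of all genes tested were called lower. DUSP10 inactivates mainly JNK and p38 kinases. It was at 162, 181 and 161 CPM at 0 h and at 118, 117 and 116 CPM at 24 h, so the libraries at 24 h were nearly equal and far below those at 0 h. The fall was 0.53 ± 0.10 on the log2 scale (edgeR, Benjamini-Hochberg adjusted p = 0.0064). It was not called without 0h replicate 2 (-0.47, adjusted p = 0.0675), without 24h replicate 2 (-0.52, adjusted p = 0.0616), or with the totals of the FPKM table (-0.29, adjusted p = 0.0910). The other 5 were not called, with DUSP2 at 0.04 ± 0.25, DUSP7 at -0.14 ± 0.14, DUSP8 at 0.02 ± 0.30, DUSP9 at -0.15 ± 0.23 and DUSP16 at -0.06 ± 0.13. DUSP7 and DUSP9 act on ERK, DUSP8 and DUSP16 mainly on JNK and p38 kinases.

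As a share of the summed FPKM of these 10 phosphatases, DUSP10 went from 36.3%, 38.1% and 34.9% at 0 h to 26.8%, 25.9% and 27.3% at 24 h. DUSP5 went from 25.3%, 24.6% and 24.2% to 31.5%, 33.5% and 29.7%, and became the largest share in every library at 24 h. DUSP1 went from 10.7%, 9.43% and 11.7% to 12.95%, 14.96% and 14.3%. For each of these 3 genes the times did not overlap, and the exact two-sided permutation p was 0.1, unadjusted, the smallest possible with 3 libraries a group. All 10 shares were compared in this way, and those of the other phosphatases overlapped. How often shares do not overlap in families of other genes was not computed, so this is not read as a result about the phosphatases. DUSP6 held 13.8% ± 1.93 at 0 h and 13.5% ± 2.28 at 24 h (SD, n = 3 each), with overlap. Shares of a fixed total depend on each other, so a rise of one lowers the rest.

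**Figure D4:**
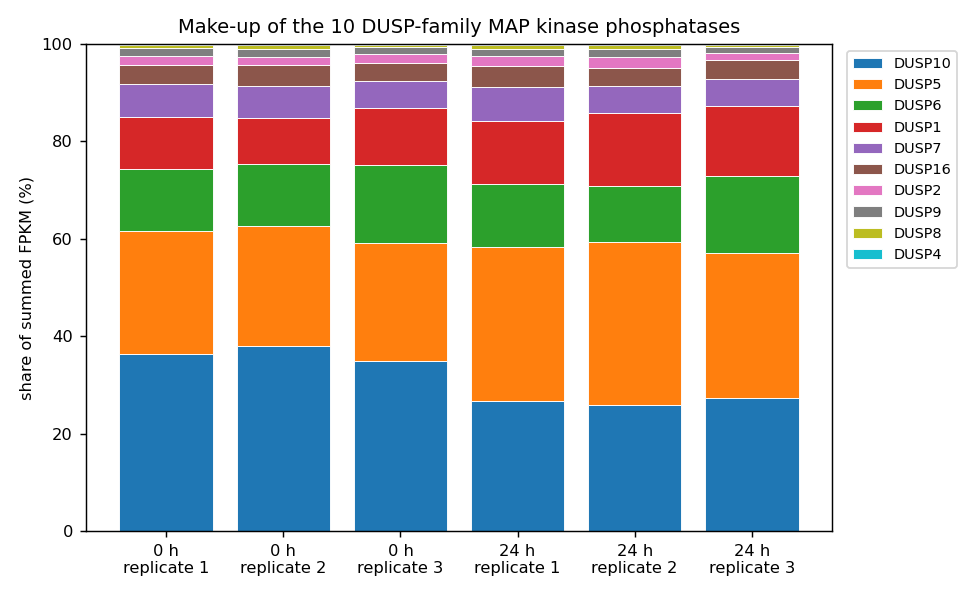
Share of the summed FPKM (vertical axis, percent) that each of 10 DUSP-family MAP kinase phosphatases held in each of the 6 libraries, stacked from the largest at 0 h. DUSP10 (blue, bottom) holds 34.9% to 38.1% at 0 h and 25.9% to 27.3% at 24 h, and DUSP5 (orange) 24.2% to 25.3% and 29.7% to 33.5%.

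Among 3 PEA3 genes, ETV5 held 74.0%, 70.7% and 74.9% of the summed FPKM at 0 h and 69.5%, 67.7% and 67.5% at 24 h, without overlap. SPRY2 went from 24.4%, 20.6% and 21.4% of the summed FPKM of 6 Sprouty and SPRED genes at 0 h to 24.7%, 25.2% and 25.8% at 24 h, also without overlap and by a narrow gap. The exact two-sided permutation p was 0.1, unadjusted, for both genes, and the shares of the other genes of these 2 families overlapped. Here too the share without overlap in other families was not computed, so no result is read from it. SPRED2 held the largest share of that sum, 50.5% ± 2.38 at 0 h and 48.2% ± 0.651 at 24 h (SD, n = 3 each). The PEA3 relative ETV1 was at -0.05 ± 0.13 on the log2 scale and the SPRED relative SPRED3 at 0.31 ± 0.37, neither called. SPRY1, with 5 to 11 counts per library, did not pass the filter on low counts. SPRY3 was not among the genes of the count table and is not in these sums.

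Upstream, of 22 genes of the RAS-ERK cascade 21 were tested, and 0 were called in either direction by edgeR or by DESeq2. Of these, 1 was higher and 4 were lower at an unadjusted p under 0.05, which 8.22% and 9.93% of all genes met, and the median was 0.04. SOS1, an exchange factor that loads RAS with GTP, had the smallest p, at 53.0, 54.9 and 61.3 CPM at 0 h and 46.0, 35.9 and 47.4 CPM at 24 h. Its log2 fold change was -0.39 ± 0.13 (edgeR, Benjamini-Hochberg adjusted p = 0.111). MAP2K2, which encodes the kinase MEK2, came next, at 137, 141 and 126 CPM at 0 h and 165, 188 and 144 CPM at 24 h. Its value was 0.30 ± 0.11 (edgeR, adjusted p = 0.158), and in CPM the times did not overlap for either gene. With the totals of the FPKM table SOS1 was at -0.15 and not called (edgeR, adjusted p = 0.445), and its FPKM overlapped. MAP2K2 was then at 0.54 and called (edgeR, adjusted p = 0.0056), when 17.6% of all genes were called higher.

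Downstream, 0 of 13 other ERK response genes were called by edgeR or by DESeq2, with a median of -0.02 and a range from -0.60 to 0.29. At an unadjusted p under 0.05, 1 was higher and 1 lower, near the 8.22% and 9.93% of all genes. The former was PHLDA1, a pleckstrin-homology protein, at 210, 235 and 203 CPM at 0 h and 270, 286 and 237 CPM at 24 h (0.29 ± 0.11, edgeR adjusted p = 0.152). The latter was the transcription factor MYC, at 166, 172 and 155 CPM at 0 h and 141, 141 and 130 CPM at 24 h (-0.26 ± 0.10, edgeR adjusted p = 0.163). With the totals of the FPKM table MYC was at -0.02 and not called (edgeR adjusted p = 0.910), and its FPKM overlapped. PHLDA1 was then at 0.53 and called (edgeR adjusted p = 0.0061), when 17.6% of all genes were called higher.

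**Figure D5:**
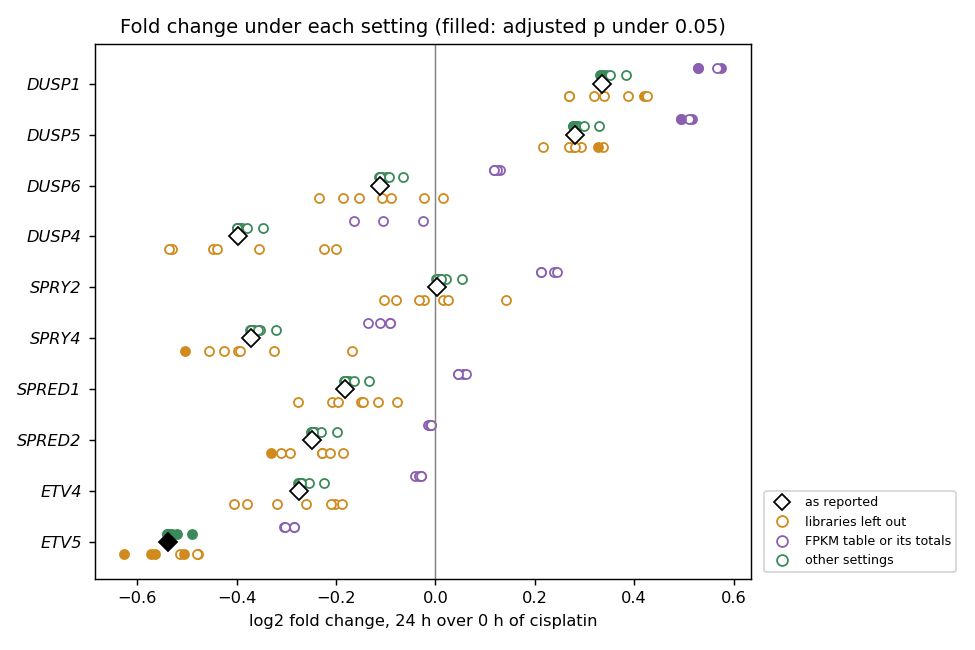
Log2 fold change (horizontal axis, 24 h over 0 h) of each of the 10 genes as reported (diamonds), with libraries left out (orange), from the FPKM table or its totals (violet) and under other settings (green), filled where the adjusted p was under 0.05. ETV5, ETV4, SPRY4, SPRED2 and DUSP4 are below 0 under every setting shown and DUSP1 and DUSP5 above 0, whereas DUSP6, SPRY2 and SPRED1 lie on both sides.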

How the data were processed

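The deposited read counts per gene are whole numbers, and the deposited FPKM values are rounded to hundredths. The submitters' processing notes name TopHat2, bcl2fastq, edgeR and the build GRCh38. Per the labels' protocols, RNA depleted of ribosomal RNA went into directional libraries. How reads were assigned to genes, whether by strand, and which totals stand behind FPKM is not given in the sources used here, so overlapping genes are uncertain. The groups are those of the titles. The labels do not say that the 3 libraries of a group were separate cultures, and the design text speaks of 2 replicates, so p-values measure only the spread between these libraries, which may be technical. No 2 libraries of the same group were identical or agreed within sampling noise.

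All counts were fitted with edgeR 4.0.16 (R 4.3.3, limma 3.58.1): TMM scaling, the default filterByExpr filter, glmQLFit and glmQLFTest without covariates, and Benjamini-Hochberg adjustment over 13389 genes. SE and 95% intervals come from the quasi-likelihood F statistic. Library totals of the FPKM table were recovered as the median ratio of count to FPKM, relative to 0 h replicate 1, over 3572 genes with more than 300 counts in each library. On data simulated for this comparison with 13389 genes, 200 changes were placed in genes above 5 CPM. Of these, 97% of changes of 1 on the log2 scale and 35% of changes of 0.5 were recovered, with 12 false calls among unchanged genes. These rates do not cover genes of lower level, such as DUSP4. Intervals and counts cover reads without molecular identifiers.

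The genes, the lists and the tests were chosen with earlier results of these data known. Named were the 10 genes, their DUSP, Sprouty, SPRED and PEA3 relatives, in each longer list the genes called and the 2 with the smallest p, and the 5 genes nearest to DUSP6 with a mean of at least 5 CPM (log2(CPM + 0.5)). Alternatives were other scalings and filters, DESeq2 1.42.0, robust dispersion, libraries left out, a replicate block, and limma on FPKM with 1 or 0.1 added before the log2.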

Additional observations from a re-analysis of the deposited data

How the results depend on the processing

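The fall of ETV5 and that of DUSP10 were each called in 13 of 19 alternatives and kept their direction in all 19. Of the 10 feedback genes, 0 were called higher and 1 lower as reported. The counts were 2 and 0 with the totals of the FPKM table and with limma on log2(FPKM + 1) at a mean of at least 1 FPKM, 0 lower with limma on log2(FPKM + 1) or log2(FPKM + 0.1), and 1 higher without both libraries numbered 3. Leaving out 1 library gave 0 to 1 higher and 0 to 3 lower. Of the other pathway genes, 0 and 1 were called as reported, 9 and 0 with the totals of the FPKM table, 5 and 0 with limma at a mean of at least 1 FPKM, 0 lower with the other limma fits, and 1 higher without both libraries numbered 3. Leaving out 1 library gave 0 higher and 0 to 2 lower. The other pathway genes tested were 6 phosphatases, 2 SPRED and PEA3 relatives, 21 cascade genes and 13 ERK response genes. With the totals of the FPKM table, 17.6% of all genes were called higher, so the 9 are not read as a rise of the pathway. Limma at a mean of at least 1 FPKM called 1167 of all genes higher, and its 5 are not read so either.

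Whether the replicate numbers pair the libraries is not stated, and the values did not settle it. The deviations of same-numbered libraries from their group means correlated at 0.25, -0.02 and 0.43. For 0 h replicates 1 and 3 the best match at 24 h had the same number, and for 0 h replicate 2 it was 24 h replicate 1 (0.23). Deviations within so few libraries depend on each other. With the replicate block, 2 feedback genes were higher (DUSP1 and DUSP5) and 1 lower, 2 other pathway genes were higher and 3 lower, and all genes gave 739 higher and 959 lower. As reported, all genes gave 116 and 278. They gave 2354 and 195 with the totals of the FPKM table, 345 higher with no filter, 46 and 23 with limma on log2(FPKM + 1), 58 lower on log2(FPKM + 0.1), 1167 and 95 at a mean of at least 1 FPKM, and 306 and 539 without both libraries numbered 3. Leaving out 1 library gave 21 to 574 higher and 92 to 923 lower.

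Signs changed only in genes that were not called. With the totals of the FPKM table, DUSP6 was at 0.13, SPRED1 at 0.055, DUSP7 at 0.087, DUSP9 at 0.084, DUSP16 at 0.17 and ETV1 at 0.19. With limma on log2(FPKM + 1), at either filter, these 6 were at 0.12, 0.046, 0.075, 0.042, 0.14 and 0.12, and on log2(FPKM + 0.1) at 0.12, 0.061, 0.086, 0.057, 0.17 and 0.17. Leaving out 1 library, DUSP6 ran from -0.23 to 0.014, SPRY2 from -0.10 to 0.14, DUSP2 from -0.057 to 0.20, DUSP8 from -0.20 to 0.28, DUSP9 from -0.33 to 0.00075, DUSP16 from -0.14 to 0.023, SPRED3 from -0.075 to 0.58 and ETV1 from -0.11 to 0.012. SPRY2 was at -0.080 without both libraries numbered 3. The cause was not tested. DUSP4, DUSP8 and SPRED3 had few counts, which limits their precision, and had no value under 1 alternative each, because they did not pass its filter.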
